A study of Mus musculus with 8 samples.

Results

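Heat shock protein genes of skeletal muscle were followed in gastrocnemius muscle of mice that lack either of the catalytic α subunits of AMP-activated protein kinase (AMPK). The genes were 10 by name: the small heat shock proteins Hspb1, Hspb6, Hspb7, Hspb8 and Cryab, the Hsp70 genes Hspa8 and Hspa1b, the Hsp90 genes Hsp90aa1 and Hsp90ab1, and the J-domain co-chaperone Dnajb5. All alternative polyadenylation sites (APSs) that carry 1 of these symbols in the table were taken, which gave 37 of 56483 APSs and 9 of 15349 genes. No APS carries the symbol Hspa1b, which was not analysed here. RNA was read by WTTS-seq (whole transcriptome termini site sequencing), an assay of the 3′ ends of polyadenylated transcripts in which reads are counted where they end and read numbers are not scaled by gene length. The AMPKα1 KO mice carry a whole-body deletion of part of the catalytic domain of the α1 subunit, and the AMPKα2 KO mice carry the same kind of deletion in the α2 subunit. Each model had 2 KO and 2 WT male mice with 1 library per mouse, and no treatment was given. Per the methods, the KO mice were near 6 weeks of age in the AMPKα1 model and near 8 weeks in the AMPKα2 model, without an age for WT mice. The labels give strain C57BL/6 and adult stage for all 8 mice, but the methods name another strain for the AMPKα1 KO, so its strain is not settled. Levels were therefore compared only between KO and WT within a model, since model, age, strain and library preparation cannot be told apart. Within a model, a possible age difference between KO and WT, and in AMPKα1 a possible strain difference, cannot be told apart from genotype.

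Heat shock proteins are chaperones that bind unfolded or damaged proteins. The small heat shock proteins hold clients without using ATP, and in muscle several of them sit on the Z-disc and on filaments such as desmin, filamin C and titin. Hsp70 and Hsp90 fold or remodel clients with ATP, and J-domain proteins bring clients to Hsp70. In contracting muscle, Hspb8 works with the co-chaperone Bag3 and Hsp70 to route damaged filamin to autophagy. Stress raises many of these genes through heat shock factor 1, whereas Hspa8 and Hsp90ab1 are the constitutive forms.

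The sequence before each main APS, the site with the most reads of its gene, shows whether it has the form of a regular cleavage site. In the lines that follow, 30 bases of GENCODE M21 transcript on GRCm38 are printed in transcript direction, and capitals mark the polyadenylation signal AATAAA. For Hspb1, Hspb6 and Hspb7, whose site lay 1, 1 and 7 nt past the annotated end, these are the last 30 bases of the transcript.
Hspb1 (chromosome 5, + strand, site 135889564): AATAAAagttgcaagctactgctcaccacc
Hspb6 (chromosome 7, + strand, site 30555444): tccccAATAAAtgcacttgagatttgtcaa
Hspb7 (chromosome 4, + strand, site 141425318): taacctgtacacAATAAAaggacaatatga
Hspb8 (chromosome 5, − strand, site 116408494): atgatgatAATAAAggagctgatgttctta
Cryab (chromosome 9, + strand, site 50756635): taagctAATAAAaatatcattcagcaacaa
Hspa8 (chromosome 9, + strand, site 40805200): ggaatAATAAAactatttaaattggcacca
Dnajb5 (chromosome 4, + strand, site 42958734): gaaaaaAATAAAgtattttaaaaatatagc
These 7 main sites lay within 24 nt of an annotated 3′ end of a coding transcript, and their signal began 22 to 31 bases before the site, counted with the site as base 1.

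The main sites of both cytosolic Hsp90 genes were of another kind. Each lay in a coding exon and was followed by an A-rich stretch, at 110694178 on chromosome 12 for Hsp90aa1 and at 45570419 on chromosome 17 for Hsp90ab1, both on the − strand. Hsp90aa1 is shown as the example. Its first line is the 30 bases that end at the site, which hold neither AATAAA nor ATTAAA. The second line is the 30 bases after it, with the 10-base window richest in A in capitals.
Hsp90aa1, before: aggaggagaagaaggatggtgacaagaaga
Hsp90aa1, after: AAAAGAAGAAgataaaggaaaagtacattg
The study's methods call a site A-rich when the next 30 bases hold a run of 7 As or 8 As in 10 bases, and both sites met the second criterion, with 18 As in 30 bases for Hsp90aa1 and 20 for Hsp90ab1. Among the other members, only the main site of Dnajb5 had 30 readable bases downstream, and it was not A-rich. Of the main sites of 10917 protein coding genes that could be placed, 56.1% lay within 24 nt of an annotated coding 3′ end. AATAAA stood in the last 30 bases for 55.5% of the 9040 genes with a readable window, and 25.5% of the 3838 with 30 readable bases downstream were A-rich. A polyadenylated end and priming within the transcript at such a stretch cannot be told apart from these counts. At the annotated 3′ end of Hsp90ab1, a second site at 45567774 has the last 30 bases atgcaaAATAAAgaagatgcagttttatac, with AATAAA again in capitals.

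The 8 libraries held 2311242 to 3549156 counted reads, and 3 reads in a library, taken as the least the depth can show, correspond to 0.845 to 1.30 CPM (counts scaled to library size) by library totals. Such limits and the intervals below cover counting error only and not the spread between mice. PCR copies were read without molecular identifiers, so reads may not be independent and the intervals may be too narrow even for counting error. Nothing in the sources used here says that the mice of a group came from separate litters, so p-values measure only the spread between these mice. Libraries of the AMPKα1 model differed far more among themselves: edgeR's common biological coefficient of variation per gene was 104% there and 26.2% in the AMPKα2 model. The labelled tissue was checked with 8 markers listed for fast muscle fibres. Acta1 and Ckm among them are also expressed in slow fibres, so the list is not specific to fast ones. The 8 markers summed to 79120 and 68680 CPM in the AMPKα1 KO and 146000 and 100800 CPM in the AMPKα1 WT. In the AMPKα2 libraries they summed to 52940 to 73730 CPM. Reads of Prkaa1, which encodes AMPKα1, numbered 0 and 82 in the AMPKα1 KO and 15 and 0 in the WT libraries. Prkaa2, which encodes AMPKα2, stood at 25.5 and 28.1 CPM in the AMPKα2 KO and 25.5 and 29.4 CPM in the WT libraries. The deletions remove part of each gene, so 3′ end reads outside them check no label.

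KO and WT libraries were compared by edgeR's quasi-likelihood test with Benjamini-Hochberg adjustment over all genes tested, and a gene with an adjusted p under 0.1 was called. CPM values are scaled with edgeR's TMM factors within each model. In the AMPKα2 model, 1 of the 9 members was called, Hspb7, which was higher in the KO, while 0.484% of the 10536 genes tested were called in either direction and 0.256% were called higher. In the AMPKα1 model, 0 of 9 members were called by edgeR, with 0 at an unadjusted p under 0.05 and 0 by DESeq2, beside 0% of the 13924 genes tested (0 genes, 589 at an unadjusted p under 0.05, and 115 called by DESeq2). With 2 mice against 2, an exact two-sided permutation test of a single gene cannot give a p below 0.333. In bulk muscle, fewer cells of a type and less RNA per cell cannot be told apart.

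**Figure D1:**
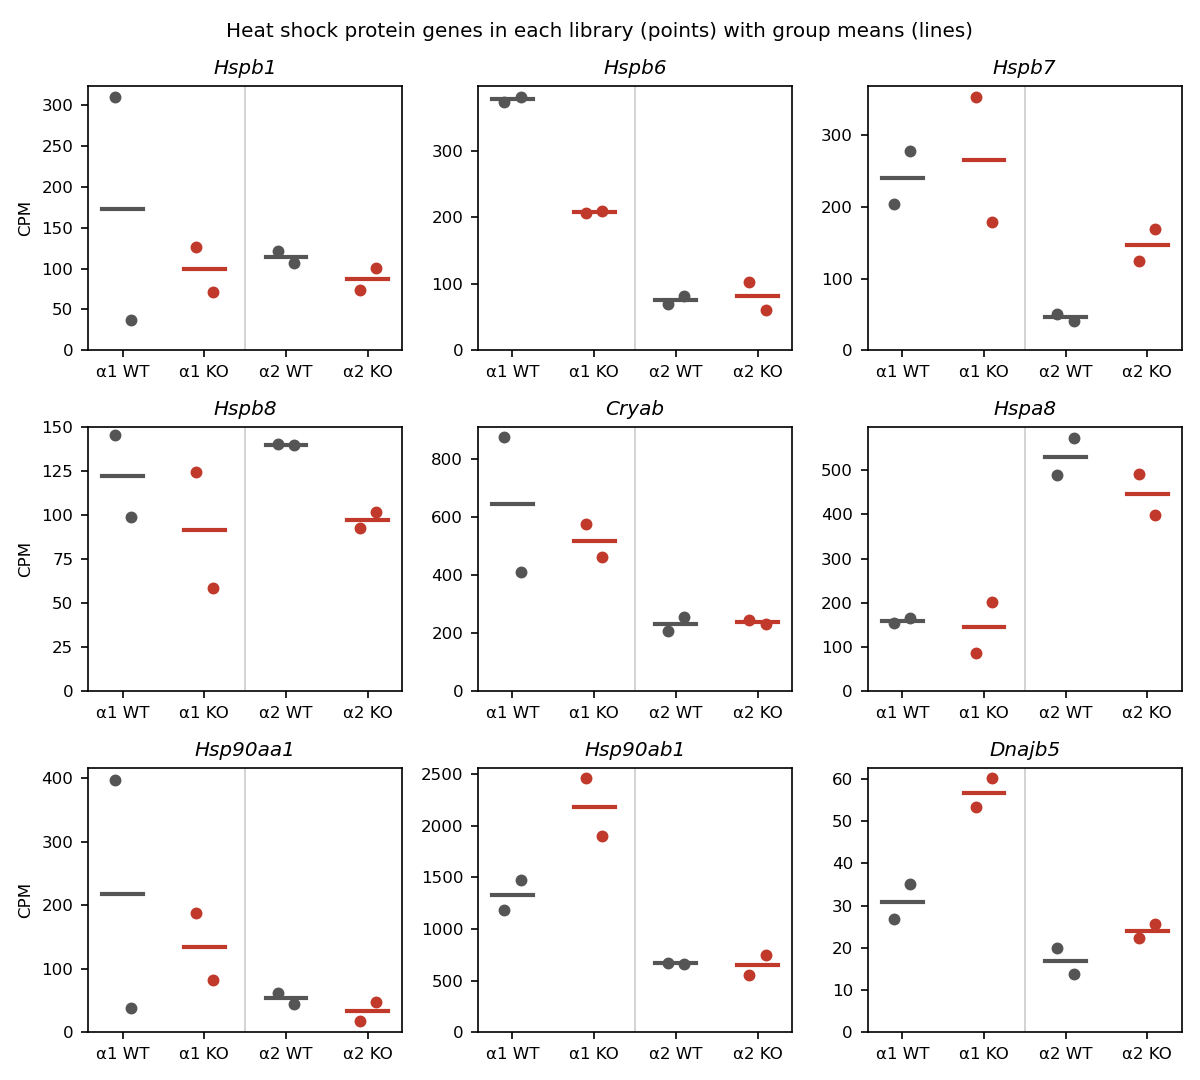
Level of each gene in CPM (linear axes that start at 0) in the 2 WT and 2 KO libraries of the AMPKα1 and AMPKα2 models, with each point a library and each line the mean of 2. The scale was set within each model, so the left and right parts of a panel are not compared. The AMPKα2 KO points of Hspb7, at 126 and 169 CPM, lie above the WT points at 51.1 and 41.7 CPM.

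Hspb7 encodes a small heat shock protein of heart and skeletal muscle that binds filamin C. In the AMPKα2 model, its reads numbered 197 and 427 in the KO and 174 and 88 in the WT libraries, or 126 and 169 CPM against 51.1 and 41.7 CPM. Both KO libraries were above both WT libraries. The mean was 147 ± 30.7 CPM in the KO and 46.4 ± 6.62 CPM in the WT (SD, n = 2), and the fitted level was 3.17-fold higher in the KO (log2 fold change 1.66, SE 0.26, adjusted p = 0.0257). The same direction was found on leaving out each library in turn, with log2 fold changes of 1.43 to 1.86. The call held only without KO library 1 (adjusted p = 0.0484) and was lost without KO library 2, WT library 1 or WT library 2 (adjusted p = 0.119, 0.219 and 0.166). It was also lost when all 8 libraries shared 1 estimate of the spread (log2 fold change 1.71, adjusted p = 0.9999).

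In the AMPKα1 model, Hspb7 stood at 354 and 179 CPM in the KO and 204 and 279 CPM in the WT libraries. The groups overlapped, with the highest and the lowest of the 4 values both in the KO. The log2 fold change was 0.14 (SE 0.48, adjusted p = 0.999). The difference between the KO effects of the models, AMPKα2 minus AMPKα1, was 1.50 on the log2 scale for Hspb7 (SE 0.58, adjusted p = 0.660), so an effect particular to the AMPKα2 KO was not shown.

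**Figure D2:**
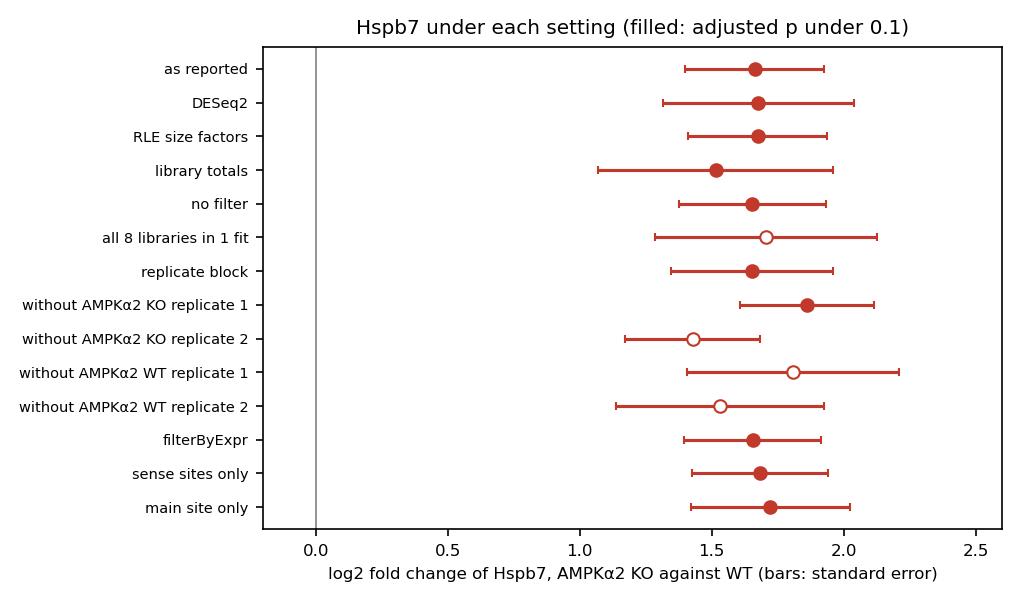
Log2 fold change of Hspb7 between AMPKα2 KO and WT (horizontal axis, bars are standard errors) under each setting tried (rows), with filled points for an adjusted p under 0.1 and open points otherwise. All 14 estimates lie between 1.43 and 1.86, and 4 of them are open.

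The other small heat shock proteins of the set had no call in either model. Hspb8, which with Bag3 sends damaged client proteins to autophagy, stood at 93.0 and 102 CPM in the AMPKα2 KO and 141 and 140 CPM in the WT libraries. Both KO libraries were below both WT libraries, and the log2 fold change was −0.52 (SE 0.23, adjusted p = 0.579). In AMPKα1, Hspb8 stood at 125 and 58.8 CPM in the KO and 146 and 98.9 CPM in the WT libraries, which overlapped (log2 fold change −0.41, SE 0.54, adjusted p = 0.989).

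Hspb1, the mouse Hsp27 that protects actin filaments, stood at 73.9 and 101 CPM in the AMPKα2 KO and 122 and 107 CPM in the WT libraries. The KO values were below the WT values without passing the test (log2 fold change −0.38, SE 0.25, adjusted p = 0.722). In AMPKα1 the KO libraries held 127 and 71.0 CPM and the WT libraries 309 and 36.8 CPM, so that 1 WT library was the highest and the other the lowest of the 4. The log2 fold change of −0.80 (SE 0.93, adjusted p = 0.965) became 1.42 without AMPKα1 WT library 1.

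Hspb6, also called Hsp20, is a small heat shock protein that is phosphorylated by protein kinase A. In AMPKα1 it stood at 206 and 209 CPM in the KO and 373 and 381 CPM in the WT libraries. Both pairs were close to each other and apart from the other pair, yet the log2 fold change of −0.86 (SE 0.37) had an adjusted p of 0.763. The fast muscle fibre markers stood lower in the same AMPKα1 KO libraries. In edgeR's fit, 8 of 8 estimates were below 0 with a median log2 fold change of −1.01 (7 of 8 and −0.68 with library totals), and 6 of 8 markers had both KO libraries below both WT libraries, beside 18.9% of all genes tested. None of the 8 markers was at 0. None was called by edgeR, with 3 at an unadjusted p under 0.05, and DESeq2 called 1. Their part in the Hspb6 values was not tested. In AMPKα2, Hspb6 stood at 103 and 60.5 CPM in the KO and 69.5 and 81.5 CPM in the WT libraries, and the KO values lay on both sides of the WT values (log2 fold change 0.11, SE 0.29, adjusted p = 0.949). The interaction of genotype and model was 0.95 for Hspb6 (SE 0.48, adjusted p = 0.756).

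Cryab encodes αB-crystallin, a chaperone of desmin filaments. In AMPKα2 it stood at 245 and 231 CPM in the KO and 210 and 256 CPM in the WT libraries. The groups overlapped, with a log2 fold change of 0.03 (SE 0.24, adjusted p = 0.981). In AMPKα1 the values were 576 and 463 CPM in the KO and 877 and 411 CPM in the WT libraries, and they overlapped as well (log2 fold change −0.31, SE 0.47, adjusted p = 0.999).

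Among the ATP-dependent chaperones, Hspa8, the constitutive cytosolic Hsp70, stood at 492 and 399 CPM in the AMPKα2 KO and 488 and 573 CPM in the WT libraries. These overlapped (log2 fold change −0.25, SE 0.25, adjusted p = 0.837). In AMPKα1, KO library 1 was low at 87.9 CPM and KO library 2 high at 202 CPM, on either side of the WT libraries at 155 and 166 CPM (log2 fold change −0.14, SE 0.52, adjusted p = 0.999).

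Hsp90ab1, the constitutive cytosolic Hsp90, stood at 2463 and 1903 CPM in the AMPKα1 KO and 1185 and 1478 CPM in the WT libraries. Both KO libraries were above both WT libraries, with a log2 fold change of 0.71 (SE 0.34, adjusted p = 0.763). In AMPKα2 it stood at 556 and 746 CPM in the KO and 675 and 661 CPM in the WT libraries, which overlapped (log2 fold change −0.04, SE 0.26, adjusted p = 0.980). The interaction was −0.77 (SE 0.45, adjusted p = 0.801).

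Hsp90aa1, the stress-inducible cytosolic Hsp90, stood at 187 and 81.8 CPM in the AMPKα1 KO and 397 and 39.1 CPM in the WT libraries. As for Hspb1, WT library 1 was the highest and WT library 2 the lowest, and the log2 fold change of −0.69 (SE 1.01, adjusted p = 0.999) became 1.78 without WT library 1. In AMPKα2 it stood at 18.5 and 47.5 CPM in the KO and 62.5 and 45.0 CPM in the WT (log2 fold change −0.68, SE 0.41, adjusted p = 0.698). This estimate was −0.18 without KO library 1 and −1.55 without KO library 2. Hspa8, Hsp90aa1 and Hsp90ab1 have near-identical pseudogene copies in the mouse genome, so their reads are uncertain where such copies share sequence.

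Dnajb5, a J-domain partner of Hsp70, had the fewest reads of the set. It stood at 53.2 and 60.2 CPM in the AMPKα1 KO and 26.8 and 35.1 CPM in the WT libraries, and at 22.3 and 25.7 CPM in the AMPKα2 KO and 20.0 and 13.7 CPM in the WT libraries. Both KO libraries were above both WT libraries in each model, but neither difference passed the test (log2 fold change 0.87, SE 0.57, adjusted p = 0.763 in AMPKα1 and 0.50, SE 0.32, adjusted p = 0.715 in AMPKα2).

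Over the 9 members, KO and WT libraries did not overlap for 2 genes with higher KO values and 1 gene with lower KO values in AMPKα1, beside 13.6% and 18.9% of all genes tested. In AMPKα2 there were 2 genes in each direction, beside 18.7% and 20.5% of all genes tested. The median log2 fold change of the members was −0.31 in AMPKα1 and −0.04 in AMPKα2, against −0.03 and −0.01 over all genes tested. The summed level of the 9 genes was 4179 and 3229 CPM in the AMPKα1 KO against 3672 and 2924 CPM in the WT libraries, and 1729 and 1882 CPM in the AMPKα2 KO against 1838 and 1918 CPM in the WT libraries. Within a group, the level in the higher library was 1.02 to 10.1 times that in the lower library in AMPKα1 (median 1.42) and 1.01 to 2.57 times in AMPKα2 (median 1.22). In the interaction test, 0 of the 9 members were called by edgeR, with 1 at an unadjusted p under 0.05 and 0 by DESeq2, beside 0.0586% of the 15349 genes tested.

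**Figure D3:**
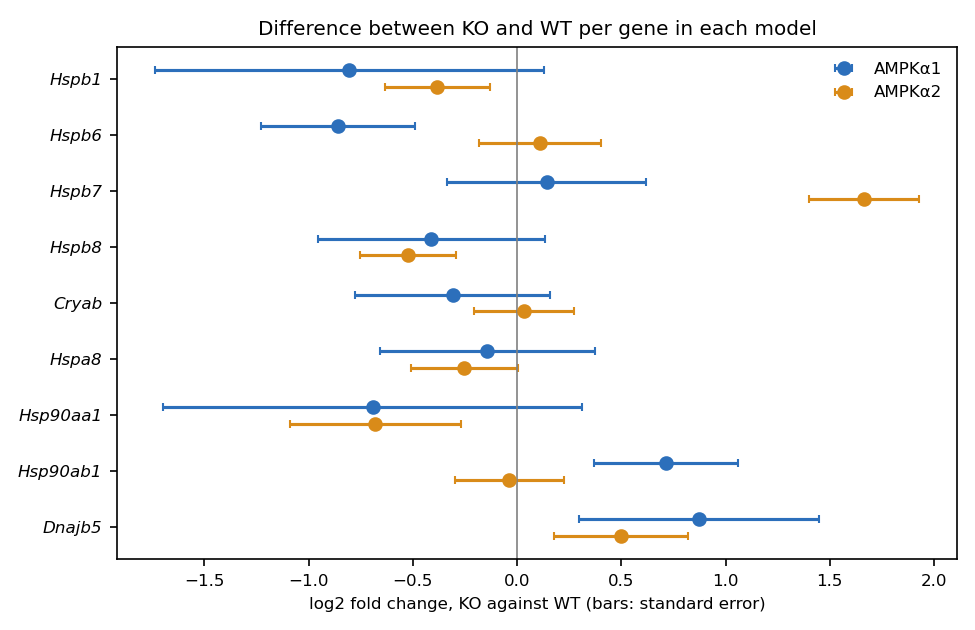
Log2 fold change between KO and WT for each gene (rows) in the AMPKα1 and AMPKα2 models (colours), with bars for the standard error of the fit. Hspb7 in AMPKα2, at 1.66, lies apart from the other estimates, which range from −0.86 to 0.87.

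The reads of a gene are spread over its APSs, and each APS was also tested alone. Of the 37 APSs, 16 reached the 16 reads needed for a test in AMPKα1 and 33 in AMPKα2. No member APS was called in either model by edgeR, beside 0.00454% of 44024 APSs tested in AMPKα1 and 0.056% of 23218 in AMPKα2. At an unadjusted p under 0.05 there were 1 member APS in AMPKα1 and 3 in AMPKα2, beside 1353 and 1765 of all APSs tested. DESeq2 called 0 and 1 member APSs, with its counts over all APSs given further below. The APS that DESeq2 called was the main site of Hspb7, with 180 and 412 reads in the AMPKα2 KO and 164 and 81 in the WT libraries. In edgeR's test per site, its log2 fold change was 1.56 (SE 0.36, adjusted p = 0.470). The second Hspb7 site at 141424618, in the 3′ UTR 693 nt before the annotated end, had 17 and 15 reads in the KO and 10 and 7 in the WT (log2 fold change 1.25, adjusted p = 0.665). Both Hspb7 sites thus had higher CPM in both KO libraries than in both WT libraries, and the main site held 91.4% to 96.5% of the gene's reads across the AMPKα2 libraries.

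The annotated 3′ end of Hsp90ab1, at 45567774, held 2625 and 1053 reads in the AMPKα1 KO and 479 and 1049 in the WT libraries, which was 15.3% to 30.3% of the gene's reads. In AMPKα2 it held 31 and 76 reads in the KO and 70 and 55 in the WT libraries, 3.04% to 4.03% of the gene's reads. The ranges of the models did not overlap, and KO and WT libraries overlapped in CPM at this site within both models. The coding-exon site at 45570419 held 76.1% of Hsp90ab1 reads over the 8 libraries. For Hsp90aa1, the coding-exon site at 110694178 held 88.4% of the reads, and the site at 110691035, 7 nt before an annotated coding end, held 8.67%. That Hsp90aa1 end site had 57 and 0 reads in the AMPKα1 KO and 82 and 0 in the WT libraries. In AMPKα2 it had 2 and 12 reads in the KO and 31 and 13 in the WT (log2 fold change −1.36, adjusted p = 0.676).

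The share of reads away from an annotated end was higher in AMPKα2 than in AMPKα1 for Cryab, Dnajb5, Hsp90ab1, Hspa8, Hspb6, Hspb7 and Hspb8. For Hsp90aa1 it was lower, at 87.3% against 92.3%, and Hspb1 had no such site. Library ranges of the models overlapped for Hspb7, Hspb8 and Hsp90aa1. Model cannot be told apart here from age, strain and library preparation. Of the 37 member APSs, 16 had no read in any AMPKα1 library and 0 had none in the AMPKα2 libraries, which is 43.2% and 0%. Over all 56483 APSs of the table these shares were 12.6% and 11.5%, and over the 21676 APSs of genes with at least as many reads as the lowest member they were 17.5% and 6.72%. The paper set a cutoff of 16 reads for a site, and the lowest total of a listed site was 16. A site without AMPKα1 reads could thus be listed only if its AMPKα2 reads reached that cutoff alone. These counts by themselves therefore cannot show that the models differ in site use. The 16 sites held 22 to 198 reads each in the AMPKα2 libraries, and 0 of them lay within 24 nt of an annotated coding 3′ end. They belonged to Hsp90ab1 (6 sites), Hspb8 (3), Hspb6, Cryab and Dnajb5 (2 each) and Hspa8 (1).

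Hspb6 had its reads at its annotated end in the AMPKα1 libraries, 3480 of 3480. In AMPKα2 the share at that end was 41.4% in KO library 1 (95% Wilson interval 34.1% to 49.1%), 74.5% in KO library 2 (67.1% to 80.8%), 82.7% in WT library 1 (77.4% to 87.0%) and 71.5% in WT library 2 (64.4% to 77.7%). KO library 1 was the low one, and its other reads lay mainly at the 3′ UTR site 30554999, with 81 reads there against 36 in KO library 2 and 33 and 48 in the WT libraries. When only the main site of each gene was counted, the log2 fold change of Hspb6 in AMPKα2 changed from 0.11 to −0.35 (adjusted p = 0.786). In edgeR's test per site, both KO libraries were below both WT libraries at this main site in each model. The log2 fold change there was −0.53 in AMPKα2 (adjusted p = 0.721) and −0.99 in AMPKα1 (adjusted p = 0.543).

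Dnajb5 also had its reads at other places in the 2 models. Its main site 42958734 held 519 of 575 reads in the AMPKα1 libraries and 39 of 197 in the AMPKα2 libraries, which is 90.3% and 19.8%. In AMPKα2 the intronic site 42953400 was the most used, with 20 and 23 reads in the KO and 22 and 12 in the WT (log2 fold change 0.69, adjusted p = 0.735). It had 14 reads in AMPKα1 KO library 1 and 0 in the other 3 AMPKα1 libraries. The distal site 42959419, 6 nt before the longest annotated end, had 34 and 0 reads in the AMPKα1 KO, 1 and 0 in the AMPKα1 WT, 1 and 4 in the AMPKα2 KO and 4 and 2 in the AMPKα2 WT libraries. Dnajb5 reads thus came mainly from a regular 3′ end in AMPKα1, and in AMPKα2 from sites with at most 23 reads in a library.

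Hspb8 had reads at 5 sites besides its main one. An intronic site at 116422110 had 0 reads in the AMPKα1 libraries, and in AMPKα2 it had 8 and 16 reads in the KO and 90 and 18 in the WT (log2 fold change −1.74, adjusted p = 0.626). WT library 1 held most of these reads. Another intronic site, at 116412321, went the other way, with 44 reads in the AMPKα1 and 10 in the AMPKα2 libraries. At the main site of Hspb8, the log2 fold change in AMPKα2 was −0.65 (adjusted p = 0.687), with 106 and 216 reads in the KO and 331 and 259 in the WT libraries. Cryab had 1 antisense APS at 50756522 with 36 reads in all, 21 of them in AMPKα2 KO library 2.

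**Figure D4:**
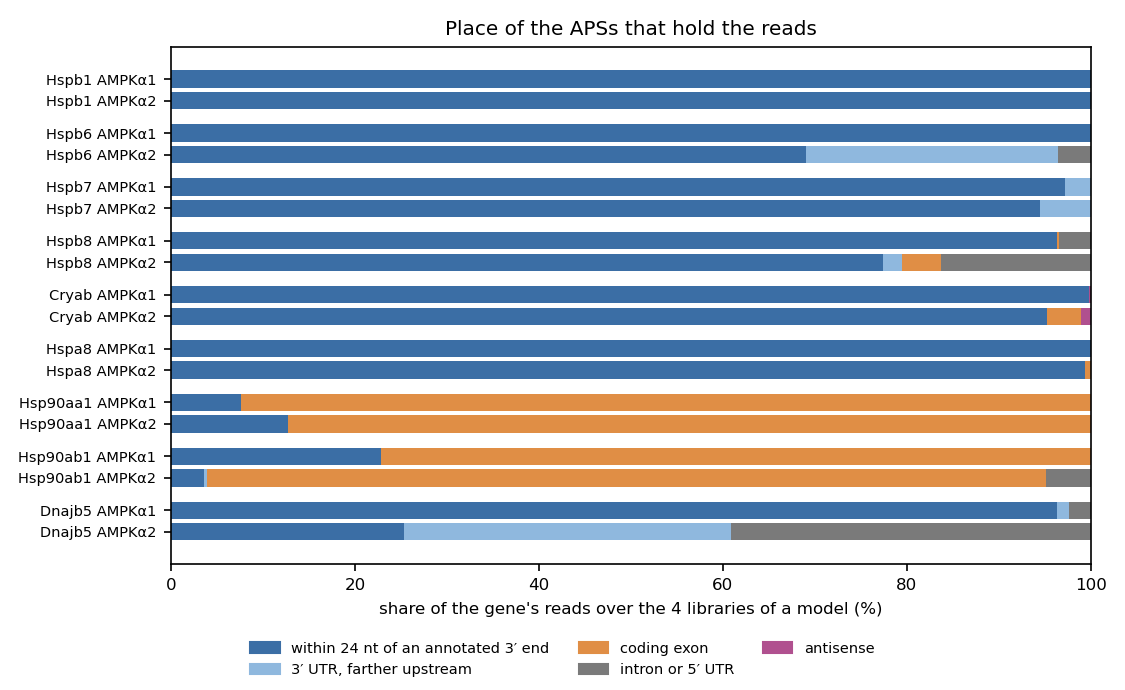
Share of each gene's reads (horizontal axis, %) by the place of its APSs in GENCODE M21 (colours), summed over the 4 libraries of each model (bars). Hsp90aa1 and Hsp90ab1 have most reads at coding-exon sites in both models, and Dnajb5 has 96.3% of its reads within 24 nt of an annotated end in AMPKα1 against 25.4% in AMPKα2.

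The other chaperone genes were read from 8 lists with 80 genes, of which 74 could be tested in AMPKα1 and 69 in AMPKα2. None was called by edgeR or by DESeq2 in either model. In edgeR's test, 7 and 5 had an unadjusted p under 0.05, beside 4.23% and 8.44% of all genes tested. The median log2 fold change of the listed genes was −0.28 in AMPKα1 and −0.12 in AMPKα2, with 25 of 74 and 26 of 69 estimates above 0. The lowest adjusted p in AMPKα2 was that of Cct3, a subunit of the cytosolic chaperonin that folds actin and tubulin (log2 fold change −1.61, adjusted p = 0.208).

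For each list, the 2 genes with the most reads are given with their log2 fold changes in AMPKα1 and AMPKα2, in that order. They were picked by reads alone and do not stand for their lists. The other small heat shock proteins with reads were Hspb2, a partner of Hspb3, at −1.09 and 0.16, and Hspb3 at −0.08 and −0.39. Of the Hsp70 relatives, Hspa4, a nucleotide exchange factor of the Hsp110 family, was at −1.37 and 0.45, and Hspa9, the mitochondrial Hsp70, at −0.37 and 0.27. Of the Hsp90 co-chaperones, St13, which links Hsp70 to Hsp90, was at −0.01 and 0.38, and Smyd1, a muscle methyltransferase that acts with Hsp90 on myosin, at −0.78 and 0.14. None of these 6 genes was called in either of the 2 models. Of the listed Hsp70 relatives, 3 of 9 estimates were above 0 in AMPKα1 (median −0.50) and 3 of 7 in AMPKα2 (median −0.24). Of the Hsp90 paralogs and co-chaperones, 1 of 14 was above 0 in AMPKα1 (median −0.78), or 4 of 14 with library totals (median −0.46). In AMPKα2, 4 of these 14 were above 0 (median −0.10).

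Of the J-domain proteins, Dnaja2 was at 0.46 and −0.42 and Dnajc7 at 0.44 and 0.42. The chaperonin subunits Tcp1 and Cct6a were at −1.66 and −0.28, and at −0.97 and 0.41. Filamin C (Flnc), a client of chaperone-assisted autophagy, was at −0.12 and 0.11, and Synpo2, which serves the same pathway at the Z-disc, at −2.10 and 0.75. The transcription factor Hsf2 was at 0.95 and −0.29, and Hsbp1, a binding partner of heat shock factor 1, at −0.83 and 0.10. In the endoplasmic reticulum list, the Hsp90 paralog Hsp90b1 was at −0.26 and −0.51 and the stress factor Atf4 at −0.11 and 0.46.

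Handling of the tissue and client proteins were covered by further lists. The immediate early genes Jun and Dusp1, which respond to stress and dissection, were at 1.04 and 0.45, and at 0.47 and 0.67. These 2 do not stand for their list. In AMPKα1, 2 of its estimates were above 0 and 5 below, with a median log2 fold change of −0.45. In AMPKα2, 3 were above and 3 below, with a median of −0.04. No gene of that list was called by edgeR or by DESeq2, with 0 of 7 in AMPKα1 and 0 of 6 in AMPKα2 at an unadjusted p under 0.05. Among the structural clients, desmin (Des) was at −0.37 and −0.04 and titin (Ttn) at −0.02 and 1.15. Titin stood at 34710 and 17410 CPM in the AMPKα2 KO and 12890 and 10640 CPM in the WT libraries, with an adjusted p of 0.437 by edgeR, and DESeq2 called 1 gene of this list in AMPKα2.

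Slow muscle fibre markers had higher values in the same AMPKα2 KO libraries in which Hspb7 was higher. All 7 markers tested had an estimate above 0, with a median log2 fold change of 1.04 (0.86 with library totals), and 6 of 7 had both KO libraries above both WT libraries, beside 18.7% of all genes tested. The edgeR adjusted p was 0.253 or more for each, so 0 of 7 were called, while 6 of 7 had an unadjusted p under 0.05, as had 8.44% of all genes tested, and DESeq2 called 2. Myh7, the slow myosin heavy chain, stood at 1024 and 978 CPM in the KO and 253 and 538 CPM in the WT (log2 fold change 1.34, SE 0.35, adjusted p = 0.253). Myl2, a slow myosin light chain, stood at 345 and 327 CPM against 103 and 231 CPM (log2 fold change 1.02, SE 0.36, adjusted p = 0.450). The list summed to 2321 and 2355 CPM in the KO and 724 and 1520 CPM in the WT libraries, and none of its markers was at 0. Its part in the Hspb7 result was not tested. In AMPKα1, the list summed to 5296 and 2306 CPM in the KO and 2068 and 1669 CPM in the WT libraries. There, 5 of 7 estimates were above 0 (median log2 fold change 0.65), or 7 of 7 with library totals (median 0.92). Only Myh7, 1 of 7, had both KO libraries above both WT libraries, beside 13.6% of all genes tested. In that model edgeR called 0 of the 7 and DESeq2 called 1.

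**Figure D5:**
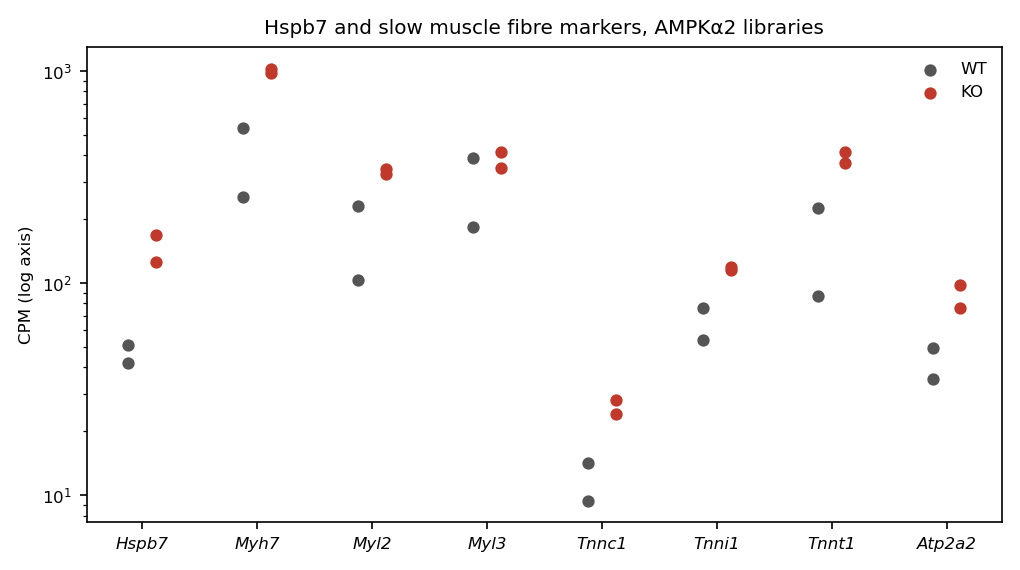
Level in CPM (log axis) of Hspb7 and of 7 slow muscle fibre markers in the 4 AMPKα2 libraries, with grey points for WT and red points for KO. Both KO points lie above both WT points for Hspb7 and for each marker except Myl3.

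Markers of other cells gave no call in AMPKα2. Summed levels in KO and WT libraries were 49.7 and 62.1 against 62.8 and 47.9 CPM for smooth muscle, 47.8 and 35.2 against 39.9 and 42.2 CPM for endothelium, and 63.1 and 46.3 against 60.5 and 54.5 CPM for macrophages. They were 3636 and 2115 against 1683 and 2215 CPM for fibroblasts, 1489 and 973 against 750 and 1134 CPM for erythroid cells, and 190 and 97.7 against 430 and 153 CPM for adipocytes. Each of these 6 sums overlapped between KO and WT, and 0 of their genes were called by edgeR or by DESeq2, with 1 endothelium and 1 erythroid gene at an unadjusted p under 0.05. By gene, 4 of 4 fibroblast markers had an estimate above 0 (median log2 fold change 0.51, or 0.25 with library totals), of which Col1a2 and Dcn had both KO libraries above both WT libraries. All 5 erythroid markers were above 0 (median 0.42), or 4 of 5 with library totals, with no overlap for Hbb-bt. Of the endothelial markers, Emcn had both KO libraries above and Kdr both below the WT libraries. Of the fast fibre markers, 0 of 8 were called by edgeR or DESeq2 and 0 had an unadjusted p under 0.05. They were higher in sum in the KO, at 73730 and 58200 against 52940 and 57010 CPM. Of their estimates, 6 of 8 were above 0 (median log2 fold change 0.22), or 4 of 8 with library totals (median 0.04). Both KO libraries were above both WT libraries for 4 of 8, beside 18.7% of all genes tested.

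Likeness across the 8 libraries was described by Pearson's r of log2 CPM centred within each model, over 3846 genes with at least 10 CPM on average in each model. The points share libraries, and per gene the AMPKα1 libraries spread more widely, so they can weigh most in r. For Hspb7 the AMPKα2 libraries were the farther apart in ratio. They stood at 126 and 169 CPM in the KO and 51.1 and 41.7 CPM in the WT. Its AMPKα1 values were 354 and 179 CPM in the KO and 204 and 279 CPM in the WT. Likeness to Hspb7 thus rests largely on the AMPKα2 values that gave its call, and is not separate from it. Hspb7 was most like Creb5 (r = 0.946), Ryr1 (0.937), the calcium release channel of the sarcoplasmic reticulum, and Mylk4 (0.922), a kinase of striated muscle. Hsp90aa1 was most like another member, Hspb1 (0.962), followed by Acin1 (0.957) and Ugp2 (0.948). Hspb1 was most like Son (0.987), Rps3a2 (0.983) and Cd34 (0.981), Hspb6 like Mylpf (0.960), Sparc (0.953) and Cdk8 (0.949), and Hspb8 like Mmp14 (0.974), Fam104a (0.974) and Nsun2 (0.970). Cryab was most like Arl2 (0.978), Cox7a2 (0.976) and Mff (0.975), and Hspa8 like Mrpl19 (0.963), 5730408K05Rik (0.957) and Phlda3 (0.954). For Hsp90ab1 these were Fam63b (0.984) and Zbtb38 (0.977), and for Dnajb5 they were Suz12 (0.945), Snap23 (0.943) and Fbxl17 (0.921).
The members were not alike as a set: over their 36 pairs r ran from −0.89 for Hspb6 and Hsp90ab1 to 0.962 for Hspb1 and Hsp90aa1, with a median of −0.18, against 0.03 over all pairs of the 3846 genes.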

How the data were processed

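The authors sequenced WTTS-seq libraries on an Ion PGM, trimmed the leading Ts, mapped reads of at least 16 bases with TMAP to the mouse genome (GRCm38.p5 per the labels), clustered read ends within 24 nt and assigned them to genes. The deposited values are raw counts of reads per APS, without normalization. Counts were summed per gene symbol. Within each model, edgeR 4.0.16 (TMM, robust quasi-likelihood fit) compared KO with WT on features with at least 16 reads over the 4 libraries, at an adjusted p under 0.1, and an interaction was fitted over all 8. Standard errors derive from the F statistic. DESeq2 1.42.0 and other scalings, filters and library sets were alternatives. The code was tested on simulated data. Sites were placed in GENCODE M21. All members are named, and so are sites with 5% of a gene's reads and the 2 genes with the most reads per list. The members and lists were chosen with earlier results of these data known. Some of the genes and sequences that these rules name are not reported here.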

Additional observations from a re-analysis of the deposited data

How the results depend on the processing

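The fitted level of Hspb7 in the AMPKα2 model was higher in the KO in every setting tried. Without a call were the fit of all 8 libraries together (log2 fold change 1.71, 0 members called) and 3 of the 4 leave-one-out fits (1.43 to 1.81, 0 members called). Over all 4 of these fits, in which the lone library of a group is assumed to vary like the others, the range was 1.43 to 1.86 with 0 to 1 members called. The adjusted p of Hspb7 ranged from 1.2e-06 without a filter to 0.9999 in the fit of 8 libraries. Having 2 mice per group limits all of these values, and standard errors of the members in AMPKα1 ran from 0.34 for Hsp90ab1 to 1.01 for Hsp90aa1.

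Counts of genes called in AMPKα1, 0 as reported, were 115 with DESeq2 and 97 in the fit of 8 libraries. In AMPKα2, 51 genes as reported became 160 with library totals, 376 without a filter, 4 in the fit of 8 libraries, 26 at an adjusted p under 0.05 and 26 to 89 on leaving out a library. APSs called in AMPKα1, 2 as reported, were 218 with DESeq2, 49 with library totals, 4 without a filter, 1564 in the fit of 8 libraries and 0 to 170 on leaving out a library, and that fit of 8 called 1 member APS, of Hsp90ab1 at 45568941 (log2 fold change 1.81). In AMPKα2, 13 APSs became 96 with DESeq2, 45 with library totals, 557 without a filter, 2 in the fit of 8 libraries, 8 at an adjusted p under 0.05 and 0 to 76 on leaving out a library. DESeq2 called 1 member APS there, and 2 were called without a filter. The causes of these shifts were not tested.

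Same-numbered KO and WT libraries come from different mice, and over genes the difference between libraries 1 and 2 in the KO correlated with that in the WT at r = 0.05 in AMPKα1 and about 0 in AMPKα2. With the replicate block, 83 genes and 520 APSs were called in AMPKα2, with 1 member APS, and Hspb7 per gene had a log2 fold change of 1.65 (adjusted p = 0.0417). The block gave −0.0525 for the Hspb7 main site in AMPKα1 and −0.23 for the interaction of Hspb1.

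Other changes of sign concern uncalled estimates. Library totals moved the median of all genes from −0.03 to 0.22 in AMPKα1 and from −0.01 to −0.19 in AMPKα2. With them, Cryab was at 0.0015 and Hspa8 at 0.12 in AMPKα1 (0.11 at its main site), Hspb6 at −0.14 and Cryab at −0.15 in AMPKα2, and the interaction at −0.11 for Hspb1 and −0.15 for Cryab. Hsp90ab1 in AMPKα2 was at 0.0037 in the fit of 8 libraries. With main sites only, Hspb6 was at −0.35 and Cryab at −0.012 in AMPKα2. On leaving out a library, log2 fold changes in AMPKα1 ran from −1.61 to 1.42 for Hspb1, −0.43 to 0.55 for Hspb7, −1.06 to 0.026 for Hspb8, −0.72 to 0.34 for Cryab, −0.87 to 0.33 for Hspa8 and −1.52 to 1.78 for Hsp90aa1. In AMPKα2 they ran from −0.31 to 0.45 for Hspb6, −0.12 to 0.19 for Cryab and −0.27 to 0.16 for Hsp90ab1, and without a change of sign from −0.63 to −0.18 for Hspb1, −0.41 to −0.11 for Hspa8, −1.55 to −0.18 for Hsp90aa1 and 0.27 to 0.80 for Dnajb5. At main sites in AMPKα1 they ran from −1.81 to 1.34 for Hspb1, −0.50 to 0.34 for Hspb7, −0.92 to 0.27 for Cryab, −1.04 to 0.23 for Hspa8 and −1.68 to 1.75 for Hsp90aa1, and in AMPKα2 from −0.64 to 0.046 for Hsp90ab1. The interaction ran from −1.90 to 1.24 for Hspb1, −0.73 to 0.54 for Hspb8, −0.40 to 0.77 for Cryab, −0.58 to 0.45 for Hspa8 and −2.56 to 0.85 for Hsp90aa1.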
